A study of Mus musculus with 19 samples.

Results

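The clustered protocadherin locus of the mouse was taken as the stretch of chromosome 18 from 36950001 to 38050000 (NCBIM37), which holds the *Pcdha*, *Pcdhb* and *Pcdhg* clusters in this order. It was cut into tiles of 2 kb, and only tiles with reads in the Input library were kept, which left 538 of 550 tiles of the locus out of 1242015 such tiles in the genome. *Pcdha* (37089939 to 37347311) held 126 of these tiles, *Pcdhb* (37424652 to 37681073) 124 and *Pcdhg* (37833989 to 38001527) 85. The remaining 203 tiles lay before, between and after the clusters, and 999 tiles in the 1 Mb on either side served as flanks. The position of the tiles, not their signal, defined the locus.

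Clustered protocadherins are cell surface adhesion proteins of the cadherin family, best known from neurons, where each cell uses its own combination of isoforms to tell its own branches from those of other cells. In *Pcdha* and *Pcdhg*, each isoform starts at a promoter in front of its own large variable exon, which is spliced to a few constant exons shared by the whole cluster. *Pcdhb* genes consist of single large exons without shared constant exons. The promoters are rich in CpG sites, are known to be DNA methylated when an isoform is off, and bind CTCF when unmethylated. H3K27me3 is set by Polycomb complexes and typical of silent CpG-rich promoters of developmental genes, whereas H3K9me2 and H3K9me3 mark other forms of silent chromatin.

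ChIP-seq of these 3 histone marks was compared between embryonic stem cells (ESCs, given as strain E14 by the labels and as C57BL/6 by the study's methods) with the genotype label Wildtype, called control here, and cells labelled Dnmt1 KO, in which the maintenance DNA methyltransferase gene *Dnmt1* had been conditionally deleted by Cre (*Dnmt1* cKO). For every mark, day 4 after deletion was covered by 1 library of either genotype and day 8 by 2, and 1 Input library of chromatin without immunoprecipitation came from control cells. The comparison asks whether repressive histone marks move once DNA methylation is no longer maintained. Whether the day 8 replicates came from separate cultures is not certain, so p-values measure the spread between these libraries. The values are log2 of observed over expected reads per tile, where 0 is an even spread of reads over the genome.

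Libraries held 14627174 to 26181489 reads in tiles, except 1 H3K9me3 cKO library of day 8 (replicate 1) with 5669098, and the Input held 19010249. The tile of *Dnmt1* on chromosome 9 that begins at 20744001, picked as the tile of the gene with the strongest loss of reads, held 7 to 11 reads in each of the 6 control libraries of day 8 and 0 to 1 in each of the 6 cKO libraries. Since the tile was picked by this loss, these reads describe the libraries and are no test of their labels. At day 4 it held 6 to 9 reads in controls and 2 to 4 in cKO libraries. A second library stood apart: the day 8 H3K9me2 cKO library of replicate 2 correlated with the Input at r = 0.86 over 50676 windows of 50 kb, against 0.52 to 0.65 for the other H3K9me2 libraries (given as a description, since windows share library and base composition). Beside the day 8 differences of these marks over the locus, its clusters and its exons, values without the library concerned are given.

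H3K27me3 and H3K9me3 were both higher over the locus than in its surroundings. The mean log2 level of H3K27me3 over the 538 tiles was 0.36 in the day 4 control, 0.42 and 0.47 in the day 8 controls, 0.36 in the day 4 cKO and 0.32 and 0.36 in the day 8 cKO libraries, against -0.32 in the Input. The flanks held -0.18, -0.28 and -0.29 in the same controls and -0.29, -0.41 and -0.57 in the cKO libraries, so every library was higher over the locus than beside it. The locus minus its flanks was 0.72 ± 0.13 (SD, n = 6 libraries, 6 of 6 higher; exact sign-flip permutation test, two-sided, adjusted p = 0.0469 over 3 marks), and -0.03 in the Input.

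H3K9me3 exceeded the flanks by 0.39 ± 0.12 (SD, n = 6, 6 of 6 higher; exact permutation test, adjusted p = 0.0469), although its mean level there was below 0. It was -0.54 in the day 4 control, -0.60 and -0.56 in the day 8 controls, -0.56 in the day 4 cKO and -0.87 and -0.75 in the day 8 cKO libraries. In the same controls, all tiles of the genome had a mean of -0.62, -0.67 and -0.64, and the flanks had -0.94, -1.08 and -1.13. The control locus was thus near the genome in H3K9me3, and the flanks were below it. H3K9me2 differed from the flanks by -0.14 ± 0.17 (SD, n = 6, lower in 5 of 6; exact permutation test, adjusted p = 0.156), which did not pass the threshold. With 6 libraries this test cannot give an unadjusted p below 0.03125. In the same controls, H3K9me2 was -1.32, -1.32 and -1.34 over the locus and -1.17, -1.49 and -1.19 in the flanks. Both were below its mean over all tiles (-0.63, -0.63 and -0.62).

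Between marks, the excess over the flanks was larger for H3K27me3 than for H3K9me2 by 0.86 (6 libraries against 6, exact permutation test, adjusted p = 0.00325) and H3K9me2 minus H3K9me3 was -0.53 (adjusted p = 0.00325, exact permutation test). H3K27me3 exceeded H3K9me3 by 0.33 (exact permutation test, adjusted p = 0.00433), but only by 0.04 (adjusted p = 0.665) when the reads of a region were summed before the log was taken. The 6 libraries of a mark span both genotypes and days, and all share the same tiles.

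Strongly marked tiles were counted next. A tile was called marked where it was at least 2-fold above the Input in all 3 control libraries. For H3K27me3 this held for 185 of 538 tiles of the locus (34.4%) and 210 of 999 tiles of the flanks (21.0%), against 6.4% of all tiles. For H3K9me3 it held for 65 tiles of the locus (12.1%) and 15 of the flanks (1.5%), against 5.2% of all tiles. For H3K9me2 it held for 5 tiles of the locus and 12 of the flanks, against 3.55% of all tiles. By the same rule in the 3 cKO libraries, 181 tiles of the locus were marked by H3K27me3 (6.97% of all tiles), 45 by H3K9me3 (4.95%) and 1 by H3K9me2 (3.05%). Without the shallow library the H3K9me3 count was 50 (6.1% of all tiles), and without the Input-like library the H3K9me2 count was 6 (5.41%). H3K27me3 thus had the largest share of marked tiles in the locus. As a ratio, though not in percentage points, the share of H3K9me3 differed more from that of the flanks.

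**Figure D1:**
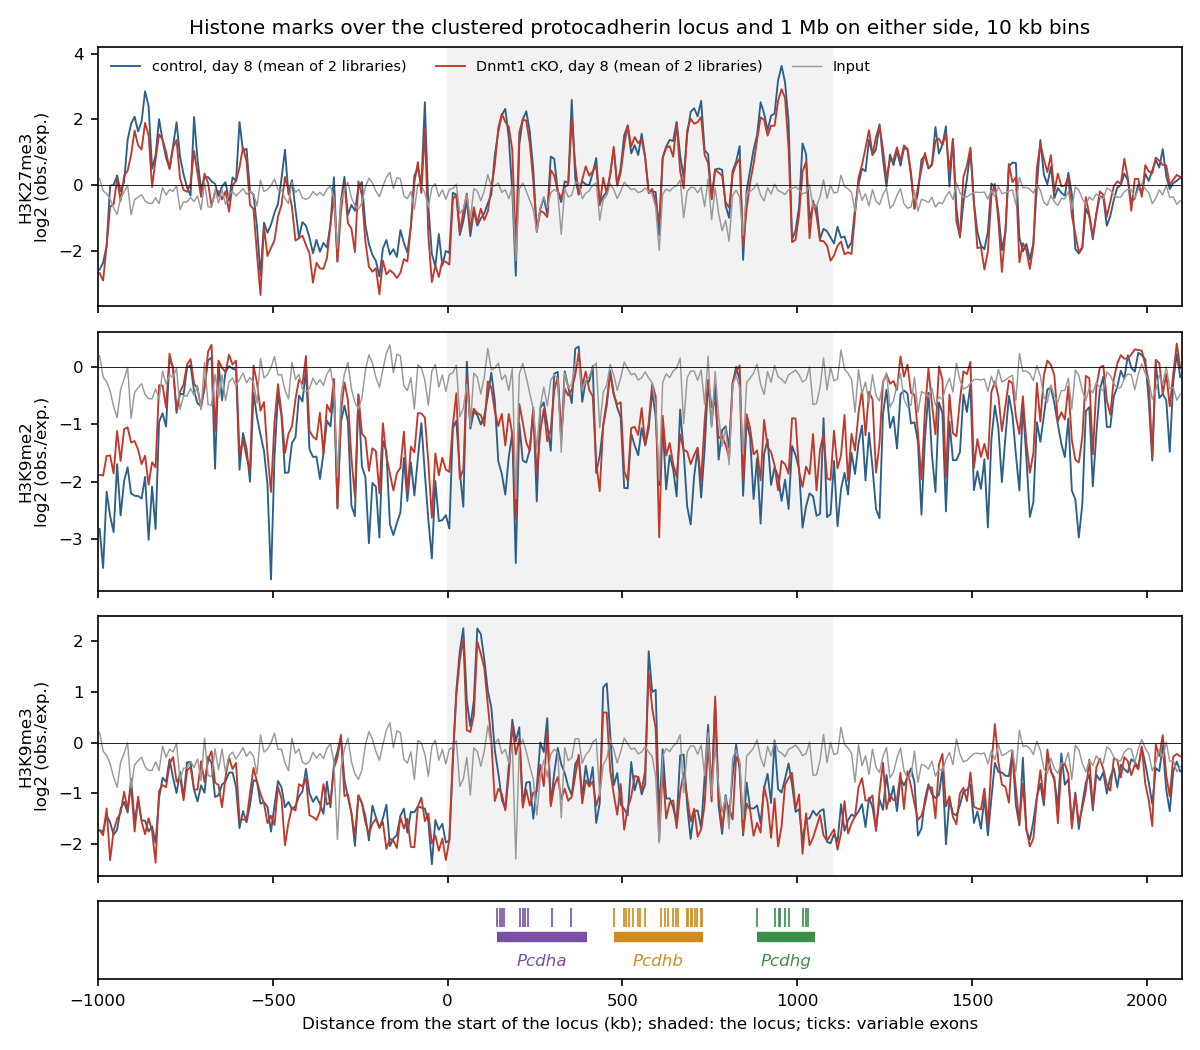
Mean log2 observed over expected reads in bins of 10 kb (vertical axis) for the 3 marks, against the distance from the start of the locus in kb (horizontal axis). Blue lines are the mean of the 2 day 8 control libraries, red lines the mean of the 2 day 8 cKO libraries and grey lines the Input, the shaded span is the locus, and bars and ticks at the bottom are the clusters and their variable exons. H3K27me3 peaks lie over the clusters and at places in the flanks, whereas H3K9me3 is highest before *Pcdha*.

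The 3 clusters differed in their mixture of marks. H3K27me3 exceeded the flanks by 0.83 ± 0.20 in *Pcdha*, 1.38 ± 0.13 in *Pcdhb* and 1.38 ± 0.09 in *Pcdhg* (SD, n = 6 libraries, 6 of 6 higher in each; exact permutation test, adjusted p = 0.0402 over the 9 tests of marks and clusters). H3K9me3 exceeded them by 0.42 ± 0.14 in *Pcdha* and 0.16 ± 0.10 in *Pcdhb* (SD, n = 6, 6 of 6 higher; exact permutation test, adjusted p = 0.0402 each). In *Pcdhg* it differed by -0.10 ± 0.18 (SD, n = 6; exact permutation test, adjusted p = 0.344). The *Pcdhb* value of H3K9me3 lost its call when medians over tiles were used (0.15, adjusted p = 0.281).

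H3K9me2 was below the flanks, at -0.31 ± 0.19 in *Pcdhb* and -0.70 ± 0.24 in *Pcdhg* (SD, n = 6, 6 of 6 lower; exact permutation test, adjusted p = 0.0402 each), and differed by 0.14 ± 0.26 in *Pcdha* (adjusted p = 0.281). The *Pcdhb* value was -0.09 with flanks of 0.5 Mb (exact permutation test, adjusted p = 0.422). From *Pcdha* to *Pcdhg*, both H3K9 marks thus had their highest mean at *Pcdha* and their lowest at *Pcdhg*, and H3K27me3 its lowest at *Pcdha*. The order of the clusters within a mark was not tested.

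**Figure D2:**
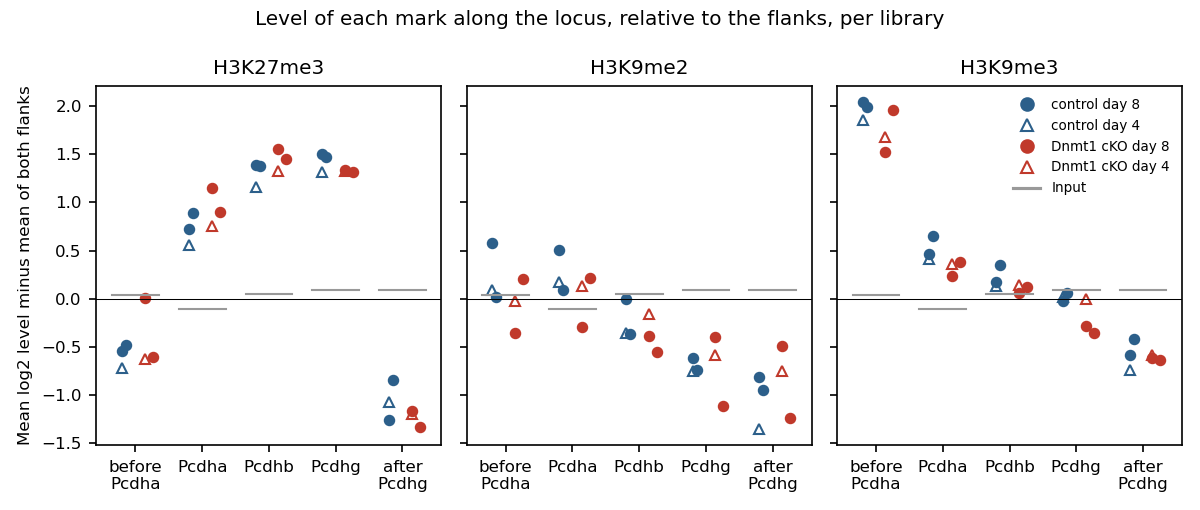
Mean log2 level minus that of the flanks (vertical axis) in each library for the stretch before *Pcdha*, the 3 clusters and the stretch after *Pcdhg* (horizontal axis), 1 panel per mark. Circles are day 8 and triangles day 4 libraries, blue control and red cKO, and the grey line is the Input. H3K27me3 lies above the flanks in all libraries over all 3 clusters.

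Within the clusters, H3K27me3 was concentrated at the variable exons. The annotation of this build gave 41 of them with a transcript of their own (10 in *Pcdha*, 22 in *Pcdhb* and 9 in *Pcdhg*), which covered 92 tiles. The annotation lists most *Pcdha* isoforms as transcripts of *Pcdha11* and the *Pcdhg* isoforms as transcripts of *Pcdhgc5*, and those names with a number are used here. *Pcdha* and *Pcdhg* have more known isoforms than annotated exons. Tiles of exons that the annotation lacks thus count among the other tiles, and counts of variable exons cover the annotated ones only. Tiles of variable exons had a mean H3K27me3 level of 1.95 in the day 4 control, 2.24 and 2.01 in the day 8 controls, 1.97 in the day 4 cKO and 2.08 and 1.77 in the day 8 cKO libraries, with the Input at -0.29. The mean of the other 446 tiles of the locus lay between -0.04 and 0.16 in these libraries, with an SD over tiles of 1.25 to 1.45, so single tiles outside the variable exons could be high as well.

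Of the 92 variable exon tiles, 81 were among the 185 tiles marked by H3K27me3 in all 3 controls, and 79 were marked in all 3 cKO libraries. By exon, the count was 39 of the 41 annotated ones in control (10 of 10 in *Pcdha*, 21 of 22 in *Pcdhb* and 8 of 9 in *Pcdhg*), where 23.1% of all 22397 first coding exons of the genome were marked. In cKO it was 38 of 41, against 20.6% of all first coding exons. No annotated variable exon was marked by H3K9me2 (1.87% of all first coding exons) or by H3K9me3 (1.94%) in the controls. In cKO it was again 0 of 41 for both H3K9 marks, against 2.09% of all first coding exons for either.

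The median H3K27me3 level of the exons in control was 2.2 in *Pcdha*, 1.98 in *Pcdhb* and 2.02 in *Pcdhg*, above 90.5%, 89.1% and 89.4% of all first coding exons, whose median was -0.55. For H3K9me2 the medians were -1.64, -2.14 and -2.21, above 53.1%, 44.9% and 44.0% of all first coding exons. For H3K9me3 they were -1.15, -1.45 and -1.0, above 57.3%, 43.9% and 62.8%. Variable exons were thus high among genes in H3K27me3 and near the middle in both H3K9 marks.

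The highest H3K27me3 level belonged to a *Pcdhg* variable exon, *Pcdhgc5-201* (37901895 to 37904312), with 3.52 in the day 4 control, 3.85 and 3.63 in the day 8 controls, 3.23 in the day 4 cKO and 3.23 and 2.67 in the day 8 cKO libraries. Next came *Pcdhgc5-210* (37896774 to 37899197), another *Pcdhg* exon, with 3.07, 3.39 and 3.26 in control and 3.06, 2.86 and 2.45 in cKO, in the same order. The third, *Pcdha11-202* (37303623 to 37306184) of *Pcdha*, held 2.82, 3.14 and 2.99 in control and 2.56, 2.71 and 2.10 in cKO. In these 3 exons both day 8 cKO libraries were below both day 8 controls, as in 34.8% of all first coding exons, yet limma gave adjusted p-values of 0.373, 0.431 and 0.458. The exons were picked as highest in control, day 8 controls included, which favours lower cKO values.

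The lowest level was that of *Pcdhgc5-203* (37979329 to 37981788), near the constant end of *Pcdhg*, with 0.26, 0.11 and -0.01 in control and 0.28, 0.65 and 0.09 in cKO. The *Pcdhb* genes *Pcdhb6* (0.88, 1.17 and 0.74 in control; 0.92, 1.20 and 1.49 in cKO) and *Pcdhb8* (0.95, 1.18 and 0.88; 1.09, 1.44 and 1.5) followed. The span from *Pcdhgc5-203* to *Pcdhgc5-201* shows that exons of 1 cluster covered the whole range of levels in the locus.

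At the level of single tiles, the highest H3K27me3 signal lay over *Pcdhgc5-201* (tile from 37902001, 109 CpG sites), with 377 reads in the day 4 control, 465 and 407 in the day 8 controls, 275 in the day 4 cKO and 258 and 201 in the day 8 cKO libraries, against 8 in the Input. The next tiles began at 37904001, at 37912001 and 37908001 (both at an exon of *Gm16882*) and, in *Pcdha*, at 37304001. The first 4 of these 5 tiles lie side by side or nearly so in *Pcdhg*.

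**Figure D3:**
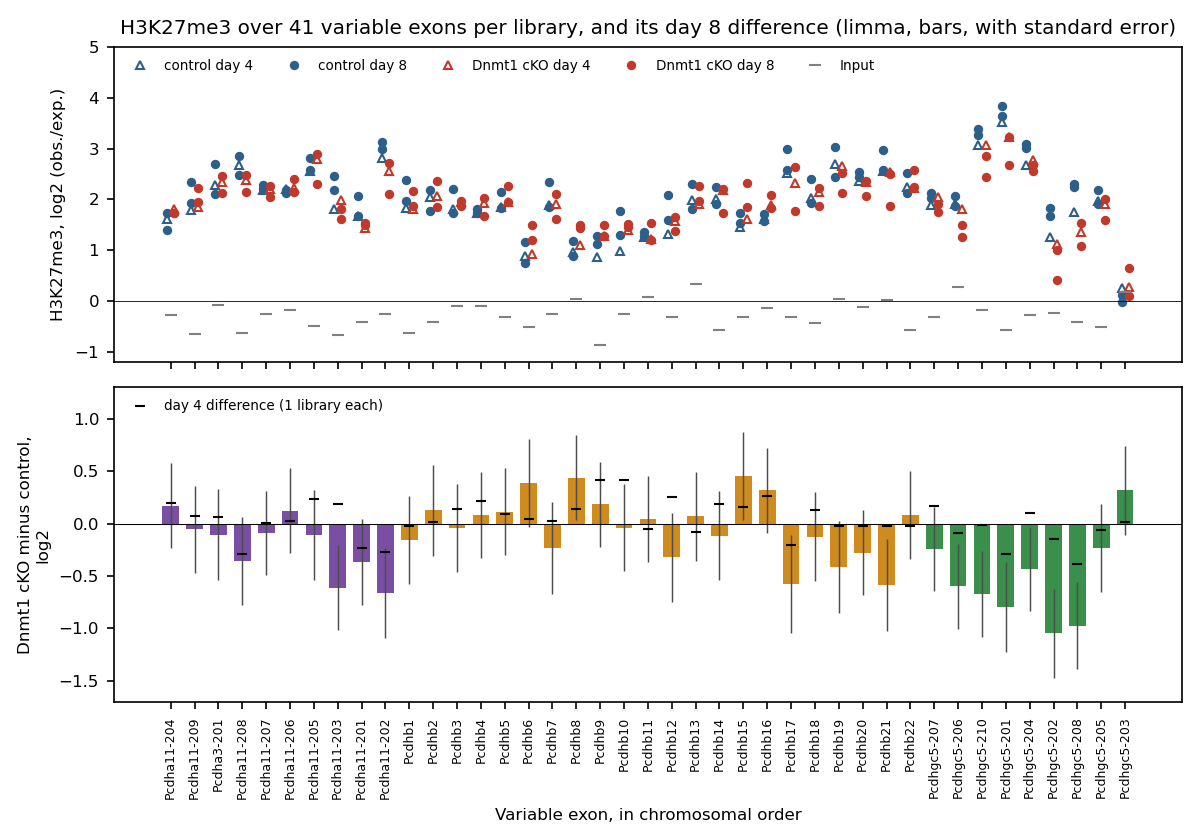
Upper panel: H3K27me3 log2 level (vertical axis) of each of the 41 variable exons (horizontal axis, in genome order) in each library, blue control and red cKO, circles day 8 and triangles day 4. Lower panel: day 8 cKO minus control (bars, with the standard error of limma) and day 4 cKO minus control (dashes), where the *Pcdhg* exons hold the largest negative bars, down to -1.05.

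H3K9me3 had its centre outside the clusters. In the 68 tiles before *Pcdha*, its mean level was 0.91 in the day 4 control, 0.96 and 0.86 in the day 8 controls, 0.79 in the day 4 cKO and 0.73 and 0.56 in the day 8 cKO libraries, against -0.26 in the Input. This stretch held 34 of the 65 marked H3K9me3 tiles of the locus and only 2 of the 185 marked H3K27me3 tiles. None of the 92 variable exon tiles was among the 65. The highest window of 50 kb (37000001 to 37050000) held 1.28, 1.41 and 1.21 in control and 1.18, 1.12 and 0.84 in cKO.

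The tile with the highest H3K9me3 level (from 37050001, nearest gene *Gm6756*) held 106 reads in the day 4 control, 164 and 110 in the day 8 controls, 102 in the day 4 cKO and 46 and 87 in the day 8 cKO libraries. Those that followed began at 36988001, 37032001 and 37036001 in the same stretch, and at 37400001 between *Pcdha* and *Pcdhb*. Over the 538 tiles, the mean control levels of H3K27me3 and H3K9me3 correlated at r = -0.13 (Spearman -0.17) and those of H3K9me2 and H3K9me3 at r = 0.48 (0.57). In the flanks the same values were 0.17 (0.21) and 0.69 (0.73), and over all tiles 0.30 (0.22) and 0.65 (0.63). Tiles share libraries and depth, so these values are descriptions.

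H3K9me2 had few strong sites. Its highest tiles began at 37262001, 37322001 and 37220001 in *Pcdha*, at 37362001 behind it and at 37004001 before it, and held 14 to 34 reads in each control library with 4 to 13 CpG sites. Among variable exons, *Pcdhb1*, *Pcdha11-202* and *Pcdhgc5-207* had the highest mean control levels (-0.38, -0.85 and -0.99) and *Pcdhb19*, *Pcdhb11* and *Pcdhgc5-202* the lowest (-2.92, -2.75 and -2.51). The highest exons of H3K9me3 were *Pcdhgc5-204*, *Pcdhgc5-206* and *Pcdha11-204* (-0.33, -0.46 and -0.48), and *Pcdhb11*, *Pcdhb18* and *Pcdhb12* the lowest (-2.17, -2.17 and -2.10). All 41 exons were thus below an even spread of reads in both H3K9 marks.

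CpG density ran with the level of H3K27me3, and at the exons hardly with that of the H3K9 marks. Over the 41 exons, CpG sites per tile correlated with the mean control level of H3K27me3 at r = 0.42 (Spearman 0.51), of H3K9me2 at r = -0.02 (0.04) and of H3K9me3 at r = 0.10 (0.19). Over the 538 tiles the same values were 0.40 (0.25), -0.39 (-0.52) and -0.14 (-0.27). Over all tiles of the genome they were 0.16 (0.16), -0.33 (-0.18) and -0.15 (-0.10). The median number of CpG sites per tile was 53.5 for *Pcdha* exons, 42.3 for *Pcdhb* exons and 55.3 for *Pcdhg* exons, against 37 for all first coding exons. Exons and tiles share libraries, and near-identical copies may lose reads to the mapping filter, which was not tested. The Input was -0.29 over variable exon tiles and -0.33 over the other tiles of the locus. Tiles without Input reads had been left out, so a complete loss would not show in these values. The Input at the exons correlated with the H3K27me3 level at r = -0.16 (Spearman -0.10).

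Other protocadherins and neighbours were compared by their first coding exons. Of 12 non-clustered protocadherin genes, which encode related adhesion proteins outside the clusters, 9 were marked by H3K27me3 in control. The same held for 9 of 37 genes that start in the flanks (24.3%), 2 of 6 other genes of the locus (33.3%) and 2 of 8 genes known to regulate the clusters (25%). These sets overlap, since a non-clustered protocadherin gene that starts in the flanks counts in both. Over all first coding exons the share was 23.1%, so flank genes and regulators were near the genome. *Taf7*, a subunit gene of the general transcription factor TFIID that lies between *Pcdhb* and *Pcdhg*, held -2.49 in the day 4 control, -2.02 and -2.12 in the day 8 controls, -2.24 in the day 4 cKO and -4.45 and -2.68 in the day 8 cKO libraries. It held 0 to 5 reads in any of these libraries, so it was close to unmarked amid marked genes. The formin gene *Diap1*, which reaches into the end of the locus, had a mean control level of -2.16, the histone deacetylase gene *Hdac3* in the flank 0.03, and the non-clustered protocadherin genes *Pcdh1* and *Pcdh12* 0.29 and 0.89.

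Day 8 cKO and control libraries were then compared for H3K27me3. The mean over the whole locus was lower in both cKO libraries (0.32 and 0.36 against 0.42 and 0.47), a difference of -0.11. The flanks were lower too (difference -0.21), so that relative to its flanks the locus differed by 0.10 with overlapping groups (0.73 and 0.93 in cKO against 0.70 and 0.77). That value was 0.20 without cKO replicate 1 and -0.0019 without cKO replicate 2. An exact test of 2 libraries against 2 cannot give a p below 0.333, so these differences are given without a test. The median of all tiles itself differed between day 8 cKO and control by 0.09 for H3K27me3, 0.07 for H3K9me2 and -0.14 for H3K9me3, and centring libraries on it subtracts these values. The H3K27me3 difference over the locus was then -0.19.

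The clusters did not move together. *Pcdhg* had 1.23 and 1.18 in control and 0.90 and 0.77 in cKO, a difference of -0.37, and was also lower relative to the flanks, at -0.16 (1.5 and 1.47 against 1.31 and 1.34). *Pcdhb* had 1.12 and 1.09 in control and 1.04 and 0.98 in cKO, a difference of -0.09 that became 0.11 relative to the flanks, or 0.063 without cKO replicate 2 and -0.018 with medians over tiles. *Pcdha* had 0.45 and 0.60 in control and 0.49 and 0.58 in cKO, a difference of 0.01 with overlapping groups. Relative to the flanks it was higher in cKO by 0.21 (0.90 and 1.15 against 0.72 and 0.89), or by 0.09 without cKO replicate 2 and 0.13 without control replicate 1. *Pcdhg* was thus lower in cKO on both scales when the flanks were pooled, while the direction of *Pcdhb* depended on the scale. The upstream flank alone (-0.44) fell further than *Pcdhg* (-0.37), and the downstream flank alone (0.03) was near *Pcdha* (0.01). Values relative to the flanks thus depend on which flank is taken. How far the clusters differed from each other in their day 8 difference was not tested.

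In limma, 0 of 538 tiles, 0 of 22 windows of 50 kb and 0 of 41 exons passed an adjusted p of 0.05 for H3K27me3 (0.0% of all tiles, of all windows and of all first coding exons). At an unadjusted p under 0.05 limma gave 14 tiles higher and 18 lower in cKO (3.78% and 3.89% of all tiles), 1 window higher and 5 lower (4.25% and 7.68% of all windows), and 0 exons higher and 2 lower (1.95% and 15.1% of all first coding exons). limma-voom on the recovered reads called 8 tiles, 5 higher and 3 lower (0.105% and 0.325% of all tiles). A trend in the variance called 4, all higher (0.0624% of all tiles). With the replicate number as a block, limma called 6 of the 22 windows (16.0% of all windows). Nothing states that a shared number marks a shared culture or day.

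All 5 higher tiles of limma-voom lay in 1 stretch of *Pcdha* and all 3 lower tiles in *Pcdhg*. Of the tiles of *Pcdhg*, 47 of 85 were lower in both day 8 cKO libraries than in both controls and 3 were higher (16.9% and 22.3% of all tiles). *Pcdha* had 31 of 126 lower and 28 higher, *Pcdhb* 26 of 124 lower and 19 higher, and the flanks 306 of 999 lower and 169 higher. By exon, 7 of 9 *Pcdhg* exons were lower and 0 higher, 4 of 10 *Pcdha* exons lower and 1 higher, and 2 of 22 *Pcdhb* exons lower and 4 higher, against 34.8% lower and 15.4% higher of all first coding exons.

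The median day 8 difference of the exons was -0.11 in *Pcdha*, 0.00 in *Pcdhb* and -0.60 in *Pcdhg*, against -0.27 over all first coding exons. The lowest *Pcdhg* value was that of *Pcdhgc5-202* (37925771 to 37928194), with 1.26 in the day 4 control, 1.68 and 1.83 in the day 8 controls, 1.12 in the day 4 cKO and 1.00 and 0.41 in the day 8 cKO libraries (difference -1.05, SE 0.43, limma adjusted p = 0.278). *Pcdhgc5-208* (37966202 to 37968631) held 1.75, 2.25 and 2.31 in control and 1.36, 1.54 and 1.07 in cKO (difference -0.97, SE 0.42, limma adjusted p = 0.292), and *Pcdhgc5-201* followed at -0.79 (SE 0.43). The 3 largest differences in the other direction, among exons whose groups did not overlap, were those of *Pcdhb15* at 0.45 (limma adjusted p = 0.607), *Pcdhb8* at 0.44 (0.608) and *Pcdhb6* at 0.39 (0.663). *Pcdhb8* and *Pcdhb6* were also among the 3 exons lowest in control, day 8 controls included.

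Reads of tiles under those *Pcdhg* exons restate these values, since an exon value is a mean over its tiles. The tile from 37926001 (120 CpG sites, *Pcdhgc5-202*) held 101 reads in the day 4 control, 133 and 127 in the day 8 controls, 70 in the day 4 cKO and 65 and 47 in the day 8 cKO libraries (log2 difference -1.33, limma adjusted p = 0.603). The tile from 37966001 (129 CpG sites, *Pcdhgc5-208*) held 103, 129 and 145 in control and 62, 63 and 59 in cKO (-1.26, adjusted p = 0.59). Both tiles were named as largest falls among tiles whose day 8 groups do not overlap, which fixed their direction at day 8. Their day 4 cKO library was below the day 4 control as well, though depth differs between libraries. The largest negative difference among named tiles, -1.60, came from 38046001 in an intron of *Diap1*, with 2 to 16 reads.

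In *Pcdha*, a stretch without a variable exon in this annotation, which may lack some isoforms, had higher H3K27me3. Between the exons of *Pcdha11-208* and *Pcdha11-207*, which lie 42.7 kb apart, tiles from 37116001 to 37156000 had a mean level of -0.01 in the day 4 control, -0.01 and 0.11 in the day 8 controls, 0.15 in the day 4 cKO and 0.59 and 0.82 in the day 8 cKO libraries, with the Input at -0.57. The difference was 0.65 at day 8 and 0.17 at day 4. Of its 19 tiles with Input, 10 were higher in both day 8 cKO libraries and 3 lower, against the 22.3% and 16.9% of all tiles given above. The stretch was picked after its values were seen and has no test.

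Its strongest tile, from 37128001 with 82 CpG sites, held 26 reads in the day 4 control, 18 and 20 in the day 8 controls, 17 in the day 4 cKO and 66 and 108 in the day 8 cKO libraries (log2 difference 2.06, SE 0.37, limma unadjusted p = 6.8e-04, adjusted 0.544). The tile from 37134001 (96 CpG sites) held 29, 23 and 25 in control and 33, 65 and 108 in cKO (1.71, adjusted p = 0.556), and that from 37148001 (63 CpG sites) 7, 4 and 16 against 11, 17 and 46 (1.71, adjusted p = 0.636). These tiles were named as the largest rises among tiles whose day 8 groups do not overlap. That both day 8 cKO libraries were above both controls thus follows from the choice. Both limma-voom and the variance trend called the first pair of tiles, and voom also called the third. H3K9me3 in the stretch was -0.06 in the day 4 control, -0.11 and 0.18 in the day 8 controls, -0.06 in the day 4 cKO and -0.05 and -0.36 in the day 8 cKO libraries, with overlapping groups. Its day 8 difference was -0.24, or -0.39 without the shallow library and -0.08 without the other cKO library. In the cKO library that is not shallow, 3 tiles were above both controls in H3K9me3 and 12 below (34.4% and 36.3% of all tiles). H3K9me2 there was -1.55, -1.68 and -1.99 in control and -1.45, -1.51 and -1.05 in cKO, in the same order, so both day 8 cKO libraries were above both controls in this mark as well (difference 0.55, or 0.32 without the Input-like library). By tile, 7 were higher and 0 lower in both day 8 cKO libraries (18.2% and 17.7% of all tiles). In the cKO library that is not Input-like, 8 tiles were above both controls and 3 below (33.5% and 33.4% of all tiles).

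**Figure D4:**
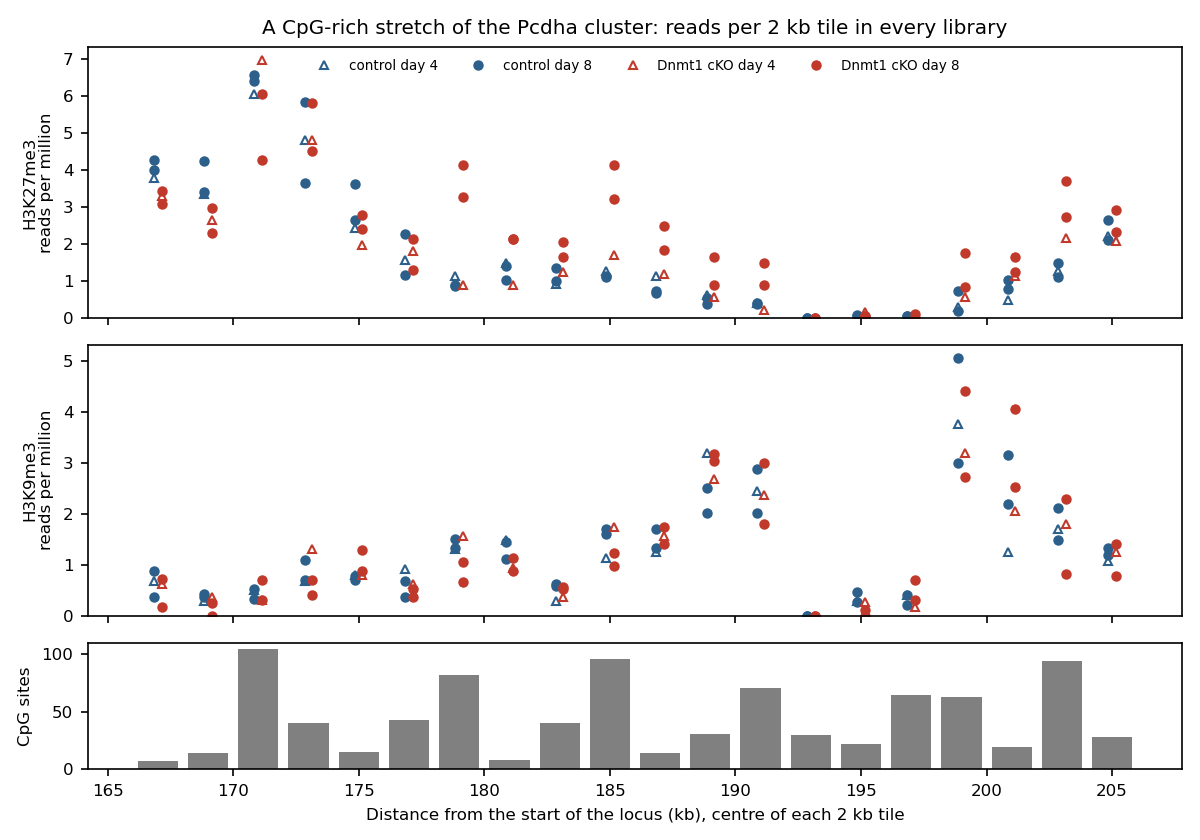
Reads per 2 kb tile, scaled to the library total as RPM (vertical axis) for H3K27me3 and H3K9me3 in each library, against the distance from the start of the locus in kb (horizontal axis), over the *Pcdha* stretch between 2 annotated variable exons, with CpG sites per tile as bars at the bottom. Blue points are control and red points cKO libraries, circles day 8 and open triangles day 4, and both day 8 cKO points of H3K27me3 lie above the others at the tiles with 82 and 96 CpG sites.

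These tiles were compared with others of like CpG content, a split chosen after the data were seen. Of tiles with at least 60 CpG sites and a day 4 control level less than 2-fold above the Input, 6 lay in *Pcdha*, of which 5 were higher and 0 lower in day 8 cKO (9.91% and 39.7% of all such tiles), with a median difference of 1.63. All 6 belong to the stretch picked above after its values were seen. Their count therefore restates that stretch and is no separate support. In the flanks 1 of 20 was higher and 10 lower, with a median of -0.55. Of CpG-rich tiles at least 2-fold above the Input in that library, 13 of 18 in *Pcdhg* were lower and 0 higher (71.7% and 3.72% of all such tiles), with a median of -0.53 against -0.95 over all such tiles and -1.11 in the flanks. *Pcdhg* was thus near the genome in its share of lower tiles. The same class had 5 of 11 lower in *Pcdha* and 1 of 7 in *Pcdhb*.

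The constant exons that all isoforms of a cluster share were examined apart. Those of *Pcdha* held 0.14 in the day 4 control, 0.00 and 0.07 in the day 8 controls, 0.42 in the day 4 cKO and 0.70 and 0.56 in the day 8 cKO libraries, a day 8 difference of 0.59. Their tile from 37344001 held 36, 25 and 31 reads in control and 45, 53 and 62 in cKO (log2 difference 0.95, limma unadjusted p = 0.0352, adjusted 0.636). The constant exons of *Pcdhg* held -0.33, -0.76 and -0.21 in control and -0.71, -1.01 and -0.68 in cKO, with overlapping day 8 groups.

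The mean H3K9me3 level of the locus was lower in both day 8 cKO libraries. The difference was -0.23 over the locus (-0.087 with libraries centred on the median of all tiles), -0.24 in *Pcdha*, -0.34 in *Pcdhg* and -0.27 before *Pcdha*, with both cKO libraries below both controls in each, and -0.16 in *Pcdhb*. Medians over tiles turned the *Pcdhb* value to 0.033, or 0.18 relative to the flanks. The flanks differed by 0.01 with overlapping groups, so the value relative to the flanks was -0.23 as well (0.36 and 0.22 in cKO, 0.48 and 0.57 in control). That value was -0.02 when medians over tiles replaced means. Without the shallow cKO library the difference was -0.17 over the locus, -0.18 in *Pcdha*, -0.065 in *Pcdhb*, -0.17 in *Pcdhg* and -0.355 before *Pcdha*. Without the other cKO library it was -0.29, -0.30, -0.26, -0.51 and -0.184, in the same order. Relative to the flanks, the locus differed by -0.30 without the shallow library and -0.16 without the other.

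A single window of the locus passed limma, the *Pcdhg* window from 37850001 to 37900000. Its H3K9me3 level was -0.72 in the day 4 control, -0.68 and -0.75 in the day 8 controls, -0.67 in the day 4 cKO and -1.51 and -1.32 in the day 8 cKO libraries. The day 8 difference was -0.70 (SE 0.15, limma adjusted p = 0.0482), where 1.14% of all 50676 windows were called, and the day 4 difference was 0.05. It was -0.60 without the shallow cKO library and -0.80 without the other. The call was lost when libraries were centred on the median of all tiles, when day 4 was added to the fit, or without either of the control libraries. The same window had the highest H3K27me3 level of the locus, with 2.27 in the day 4 control, 2.25 and 2.28 in the day 8 controls, 2.19 in the day 4 cKO and 1.99 and 1.88 in the day 8 cKO libraries.

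Of the 22 windows, 11 were lower in both cKO libraries in H3K9me3 and 0 higher (32.1% and 21.7% of all windows), and limma gave 4 lower and 0 higher at an unadjusted p under 0.05 (15.8% and 7.26%). In H3K27me3 the counts were 10 and 1 (19.2% and 25.3%), and the 1 higher window, from 37100001, was that of the *Pcdha* stretch (0.70, 0.78 and 0.69 in control, 0.74, 1.09 and 1.16 in cKO; limma unadjusted p = 0.0229, adjusted 0.35). The lowest unadjusted p of H3K27me3, 0.00915, was that of the *Pcdhg* window from 37900001 (difference -0.47, limma adjusted p = 0.28). At an unadjusted p under 0.05 limma had 0 windows of the locus for H3K9me2, where 5.21% of all windows were higher and 2.23% lower.

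**Figure D5:**
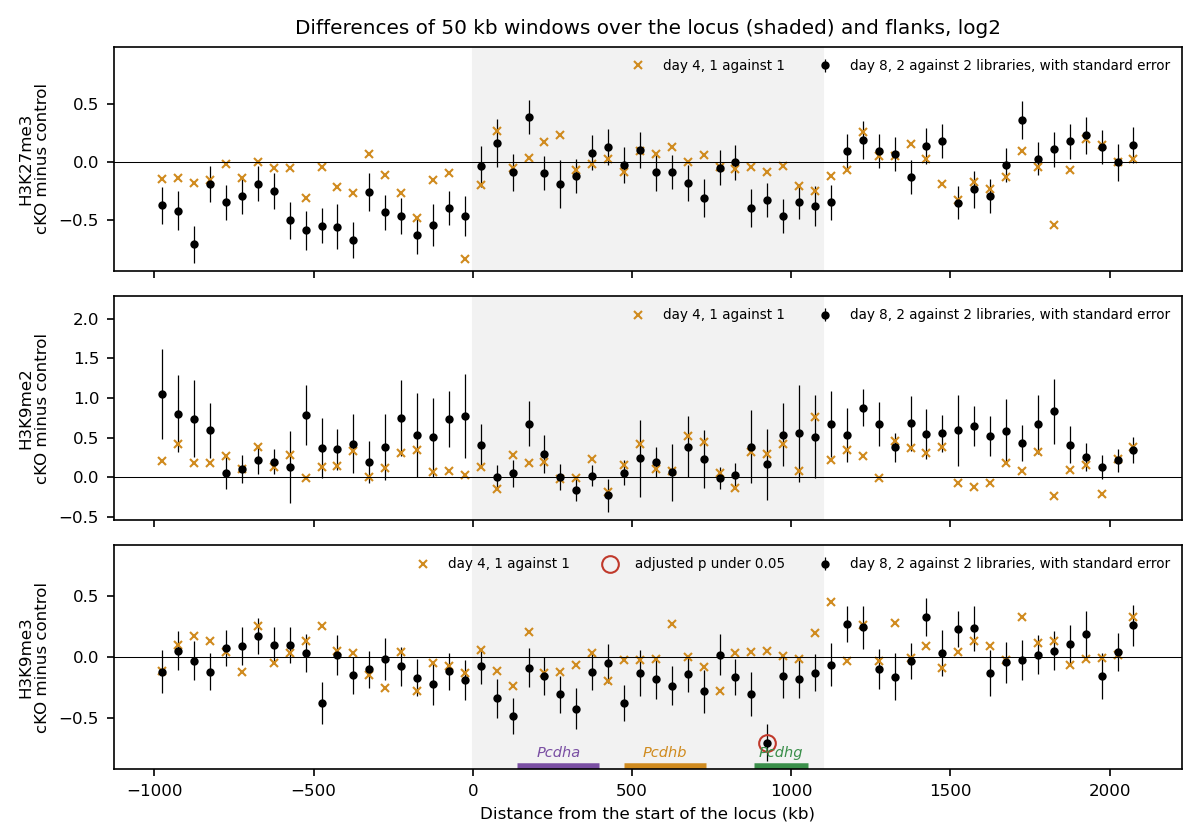
Day 8 cKO minus control in log2 units (points with the standard error of limma; vertical axis) for each 50 kb window of the locus and its flanks, by distance from the start of the locus in kb (horizontal axis), 1 panel per mark. Crosses give the day 4 difference and red rings mark an adjusted p under 0.05, which within the locus is the H3K9me3 window at -0.70.

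Within the called window, 2 CpG-rich tiles held the largest negative H3K9me3 differences of the named tiles. The tile from 37892001 (86 CpG sites) had 10 reads in the day 4 control, 22 and 20 in the day 8 controls, 15 in the day 4 cKO and 0 and 4 in the day 8 cKO libraries (log2 difference -2.61, limma adjusted p = 0.773). The tile from 37880001 (98 CpG sites) had 29, 51 and 24 in control and 31, 2 and 6 in cKO (-2.48, adjusted p = 0.773), and limma-voom called it, as it did 0.0212% of all tiles in this direction. Reads at day 4 did not differ in this way, with 15 and 31 in cKO against 10 and 29 in control. Over the 537 tiles of the locus with reads, limma called 0 for H3K9me3 (0.0% of all tiles), with 9 higher and 25 lower at an unadjusted p under 0.05 (2.5% and 3.74% of all tiles).

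By exon, H3K9me3 was higher in 7 of 41 and lower in 12 (16.1% and 20.2% of all first coding exons) and limma called 0, with 0 at an unadjusted p under 0.05 (2.24% higher and 2.63% lower of all first coding exons). The largest differences were 0.99 for *Pcdhgc5-205*, 0.66 for *Pcdhb16* and 0.61 for *Pcdha11-208*, and -0.90 for *Pcdhgc5-201*, -0.89 for *Pcdha11-204* and -0.66 for *Pcdha11-207* (limma adjusted p 0.836 to 0.848). Both directions occurred in *Pcdha* and in *Pcdhg*. The median difference was -0.07 in *Pcdha*, 0.26 in *Pcdhb* and -0.41 in *Pcdhg*, against -0.01 over all first coding exons. Without the shallow library the medians were -0.035 in *Pcdha*, 0.106 in *Pcdhb* and -0.068 in *Pcdhg*, against 0.016.

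H3K9me2 could be read only with the Input-like library in view. Over the locus the day 8 controls had -1.32 and -1.34 and the cKO libraries -1.5 and -0.75, so the groups overlapped and the mean difference of 0.20 was -0.17 without the Input-like library and 0.58 without the other. That library also spread least over the 22 windows of the locus, with an SD of 0.24 against 0.45 to 0.73 in the other H3K9me2 libraries and 0.23 in the Input. Its level differed little between clusters (-0.69, -0.79 and -0.80 from *Pcdha* to *Pcdhg*), where the other cKO library had -1.04, -1.82 and -2.38 and the controls had -0.99, -1.5 and -2.1 in replicate 1. Relative to the flanks both cKO libraries were below both controls over the locus (-0.24 and -0.35 against 0.17 and -0.15), a difference of -0.30 that was -0.14 without control replicate 1 and -0.47 without control replicate 2. It was -0.25 without the Input-like library.

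By exon, 12 of 41 were higher and 0 lower in H3K9me2 in both day 8 cKO libraries (26.8% and 6.92% of all first coding exons), led by *Pcdhb15* at 1.75, *Pcdha3-201* at 1.58 and *Pcdhb19* at 1.32 (limma adjusted p 0.829 to 0.863). limma called 0 exons, with 0 at an unadjusted p under 0.05 (5.26% higher and 0.143% lower of all first coding exons), and 0 tiles, with 34 higher and 8 lower at an unadjusted p under 0.05 (3.99% and 1.68% of all tiles). The median exon difference was 0.55 in *Pcdha*, 0.53 in *Pcdhb* and 0.36 in *Pcdhg*, against 0.42 over all first coding exons. Without the Input-like library the medians were 0.56, -0.034 and -0.066, in the same order, against 0.055, so the direction turned in *Pcdhb* and *Pcdhg*. In the remaining cKO library 12 exons were above both controls and 16 below, where 34.5% and 28.9% of all first coding exons were.

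At day 4, with 1 library per group and no test, cKO minus control over the locus was 0.00 in H3K27me3, 0.19 in H3K9me2 and -0.02 in H3K9me3. For H3K27me3 it was 0.08 in *Pcdha*, 0.06 in *Pcdhb* and -0.10 in *Pcdhg*, and medians over tiles turned the first to -0.084 and the last to 0.090. Over the 41 exons the day 4 and day 8 differences of H3K27me3 correlated at r = 0.58 (Spearman 0.54), given as a description over exons from separate libraries of each day. The day 8 difference of H3K27me3 also ran with CpG sites per tile, at r = -0.47 (Spearman -0.44) over the 41 exons and at -0.54 (-0.52) within the 9 *Pcdhg* exons, but at 0.12 (0.09) within the 10 *Pcdha* exons. Within the 22 *Pcdhb* exons the value was -0.27 (-0.33), and over the 538 tiles of the locus it was 0.00 (0.10). With the day 4 control level, the day 8 difference of the 41 exons correlated at r = -0.53 (-0.52).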

How the data were processed

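Reads had been trimmed with Trim Galore and aligned with Bowtie2 2.2.9 to NCBIM37, and alignments of low mapping quality were discarded, which can remove reads from near-identical exons. The authors deposited log2 observed over expected reads per 2 kb tile for 18 ChIP libraries and 1 Input (the methods give another tile size). Input was not subtracted. Whole reads were recovered (99.9998% of values or more within 0.02 of a whole number), with an empty tile written as 0.9 of a read, so low values depend on depth. Median reads per tile were 3 to 17.

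Levels are means over tiles with Input above its lowest value. Libraries were compared with exact sign-flip or permutation tests (scipy 1.17.1), and day 8 groups of 2 libraries with limma 3.58.1 in R 4.3.3, fitted on all tiles, 50676 windows of 50 kb and 22397 first coding exons, with Benjamini-Hochberg adjustment over each. Scripts were tested on simulated data. First coding exons, variable exons and CpG sites came from the reference of the same build (lengths of 22 of 22 chromosomes equal). The annotation gave no transcripts named for the C-type isoforms, which are not reported. Exons and tiles were named by rank: per mark the 3 highest and 3 lowest exons and the 5 highest tiles in control, and the 3 largest differences in each direction among exons and tiles whose day 8 groups do not overlap (tiles with a mean of at least 10 reads). *Taf7*, *Diap1*, *Hdac3*, *Pcdh1* and *Pcdh12* were always named. The members and lists were chosen with earlier results of these data known.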

Additional observations from a re-analysis of the deposited data

Results flagged for a closer look

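For 6 values, both day 8 cKO libraries lay below both controls while the single day 4 pair differed the other way. The difference between the days was not tested, since day 4 had 1 library per group. Over the whole locus relative to the flanks, H3K9me2 differed by -0.30 at day 8 and 0.02 at day 4. In *Pcdhb*, H3K27me3 differed by -0.092 at day 8 and 0.06 at day 4. Relative to the flanks, H3K9me2 in *Pcdhb* differed by -0.29 at day 8 and 0.19 at day 4, and H3K9me3 by -0.17 and 0.01. In *Pcdhg*, H3K9me3 differed by -0.34 at day 8 and 0.03 at day 4. Relative to the flanks, H3K27me3 in *Pcdhg* differed by -0.16 at day 8 and 0.02 at day 4. The day 8 H3K9me2 values include the Input-like library and the H3K9me3 values the shallow one. Without that library H3K9me2 was -0.25 over the locus and -0.37 in *Pcdhb*, both relative to the flanks, and H3K9me3 -0.20 in *Pcdhb* relative to the flanks and -0.17 in *Pcdhg*. The day 8 *Pcdhb* values relative to the flanks moved when a control was left out: H3K9me2 was -0.11 without control replicate 1 and -0.47 without control replicate 2, and H3K9me3 was -0.26 and -0.081.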

How the results depend on the processing

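Leaving out 1 library took the level tests below the number with which p can pass the threshold (5 libraries cannot give less than 0.0625), and the excess over the flanks then ranged from 0.67 to 0.75 for H3K27me3 and from 0.36 to 0.43 for H3K9me3 over the locus. For H3K27me3 it ranged from 0.77 to 0.88 in *Pcdha*, 1.34 to 1.42 in *Pcdhb* and 1.35 to 1.39 in *Pcdhg*, for H3K9me2 from -0.37 to -0.26 in *Pcdhb* and -0.76 to -0.62 in *Pcdhg*, and for H3K9me3 from 0.37 to 0.45 in *Pcdha* and 0.13 to 0.18 in *Pcdhb*. H3K9me3 in *Pcdhb* was 0.15 with medians over tiles (exact permutation test, adjusted p = 0.281) and 0.083 without a filter on Input (0.0804). H3K9me2 in *Pcdhb* was -0.29 with at least 5 Input reads (exact permutation test, adjusted p = 0.0703) and -0.086 with flanks of 0.5 Mb (0.422), and H3K9me3 in *Pcdhg* -0.19 with Input subtracted (exact permutation test, adjusted p = 0.0352). H3K27me3 minus H3K9me3 was 0.037 in summed reads. The causes were not tested. The comparison between marks was given its alternatives after the data were seen, as were the CpG-rich tiles and the *Pcdha* stretch.

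For cKO minus control over the locus, H3K27me3 at day 8 was -0.21 in summed reads, -0.056 in medians, -0.19 centred on tiles and -0.19 on windows. At day 4 it was 0.030 in medians, and relative to the flanks 0.027 in summed reads and -0.0026 in medians, which turns its direction. H3K9me2 at day 4 was 0.10 in summed reads and 0.10 centred on tiles. H3K9me3 at day 8 was -0.087 centred on tiles, -0.11 centred on windows and, relative to the flanks, -0.020 in medians. At day 4 it was -0.081 in summed reads and 0.053 in medians, and relative to the flanks -0.12 and -0.017. Medians also turned the direction in 6 cluster values: H3K27me3 at day 4 in *Pcdha* (-0.084, relative to the flanks -0.12) and in *Pcdhg* (0.090), H3K9me3 at day 8 in *Pcdhb* (0.033, relative to the flanks 0.18) and H3K27me3 at day 8 in *Pcdhb* relative to the flanks (-0.018).

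Of the calls at day 8, H3K27me3 tiles numbered 4 with a trend (0.244% of all tiles were called) and 8 with limma-voom (0.431%), and H3K9me3 tiles 2 with limma-voom (0.0386%) and 0 to 30 without 1 library (30 without cKO replicate 2, where 6.07% of all tiles were called, and 7 without cKO replicate 1, 0.522%). H3K9me3 windows numbered 3 with a trend (10.4% of all windows), 0 with all 6 libraries, 0 centred on tiles and 0 to 7 without 1 library (7 without cKO replicate 2, 27.2%, and 3 without cKO replicate 1, 11.4%). Without cKO replicate 1, 2 H3K27me3 windows (9.12% of all), 12 H3K9me2 windows (18.5%) and 1 H3K9me2 exon (15.2%) were called, and without any other library 0. Control and cKO share only a replicate number. Same-numbered day 8 libraries deviated together over windows at r = 0.48 for H3K27me3, 0.38 for H3K9me2 and 0.14 for H3K9me3. With the replicate block, 6 H3K27me3 windows (1 higher, 5 lower; 16.0% of all windows) and 2 H3K9me3 windows (13.0%) were called, and the block changed no other count of calls. Depth limits single tiles, which held a median of 3 to 17 reads.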
